A study of Mus musculus with 180 samples.

Results

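Circulating leukocytes leave the blood by holding on to adhesion molecules that endothelial cells show on their inner surface. P-selectin (gene Selp) and E-selectin (Sele) catch rolling leukocytes through sugars on PSGL-1, intercellular adhesion molecules 1 and 2 (Icam1, Icam2) bind the beta-2 integrins that bring the cells to a stop, and vascular cell adhesion molecule 1 (Vcam1) and the mucosal addressin (Madcam1) bind integrins of the alpha-4 family. The atypical chemokine receptor 1 (Ackr1) is a hallmark of small veins, where it carries chemokines across the endothelium and holds them on its surface. Endothelial cells that meet bacterial lipopolysaccharide (LPS) or the cytokine TNF are known to switch on several of these genes through the transcription factor NF-kB.

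These 7 genes were taken by their symbols from the deposited table of 13820 genes, and 6 of them had a row there: Selp, Icam1, Icam2, Vcam1, Madcam1 and Ackr1. Sele is not analysed here. The choice went by gene names, but it was made with earlier results of these data known. RNA had been measured by sequencing 3′ tags of polyadenylated transcripts in 15 tissues of 12 female mice aged 6 weeks, which makes 180 libraries. The PBS group was 4 C57BL/6J mice given phosphate-buffered saline (mice 1 to 4), the LPS group was 4 C57BL/6J mice given 5 mg/kg LPS (mice 5 to 8), and the TNFKO LPS group was 4 mice of the TNF-deficient line B6.129S-Tnftm1Gkl/J given the same dose (mice 9 to 12). All tissues were taken at 12 hours, after perfusion with PBS and EDTA, which washes blood out of the vessels. The TNF-deficient mice lack TNF in every cell and their line name gives a 129S origin of the allele, and none of them were studied without LPS. What the allele or strain does to resting tissue and what it does to the LPS response therefore cannot be told apart. The labels number the mice, so the 4 values of a group come from separate animals.

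Each library held 311128 to 2573806 counts, and 1 count stood for a signal of 0.322 to 3.6 in the unit of the deposited table. For 13 tissues 1 marker gene each was compared across all 15, and all 13 markers were highest in their own tissue. Tnf itself had counts in all 60 TNFKO LPS libraries, with a median signal of 35.3 against 12.6 in the LPS libraries and 6.72 in the PBS libraries. A 3′ tag can lie outside the altered part of the gene, so these levels do not check the label. Mouse 6 stood apart among the LPS mice for several members: it had the lowest Selp of the 4 in 12 of 15 tissues, the lowest Icam1 in 8, the highest Icam2 in 9 and the highest Madcam1 in 8. Counts of calls are therefore given with and without it. Because mouse 6 was picked by the values of the members themselves, calls gained without it are no added support.

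Several members overlap other genes, and this bears on what their counts are. Only the neighbours of Icam1 and Ackr1 have a row in the deposited table. The last 511 bases of Icam1 (chromosome 9, 21015985 to 21028817 on the plus strand, GRCm38) are shared with Gm47079 on the opposite strand. Gm47079 held 9257 counts over all libraries against 10328 for Icam1, was at or below Icam1 in 178 of 180 libraries, and followed it with Pearson r = 0.996 over 45 tissue and group means. Whether counting used strand is not stated, so reads of this pair cannot be told apart, and Icam1 values below may include reads of Gm47079. Ackr1 (chromosome 1, 173331886 to 173333750 on the minus strand) shares 493 bases with the end of Cadm3, a neural adhesion gene on the same strand. Gm47079 and Cadm3 were named after their values were seen. The last 1436 bases of Selp overlap Gm16548, and another 2935 bases overlap Gm16587. Vcam1 shares 1238 bases with Gm43109. These neighbours of Selp and Vcam1 lie on the opposite strand and have no row, so their levels are unknown here. Selp and Vcam1 values may include their reads. Selp lies on chromosome 1 (164115264 to 164150026), Vcam1 on chromosome 3 (116109949 to 116129688), Madcam1 on chromosome 10 (79664559 to 79668537) and Icam2 on chromosome 11 (106377656 to 106388075).

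**Figure D1:**
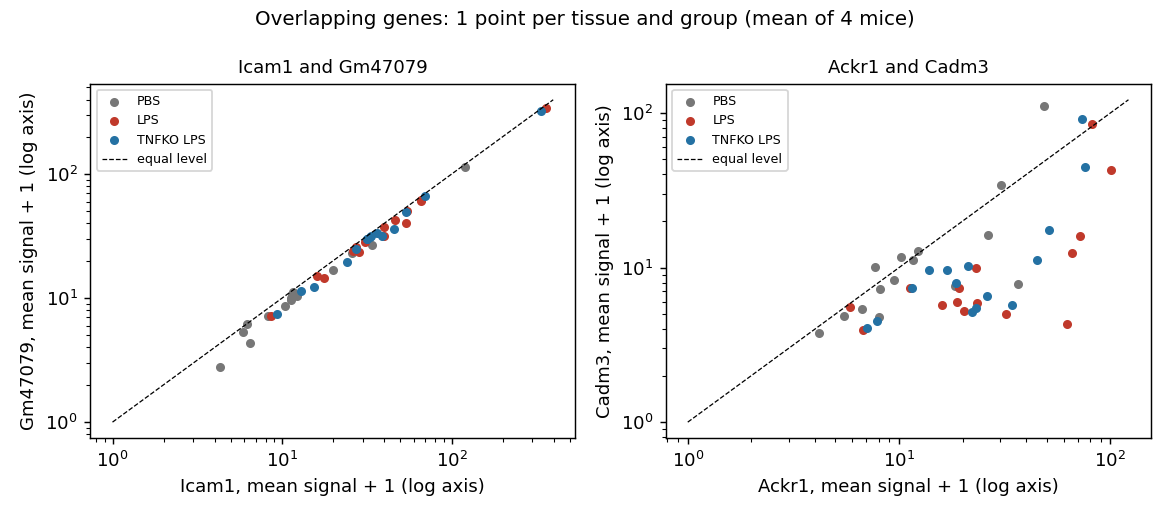
Mean deposited signal plus 1 of Gm47079 against Icam1 (left) and of Cadm3 against Ackr1 (right), both on log axes, with 1 point for each of 15 tissues and 3 groups and a dashed line of equal level. The Gm47079 points follow the line closely (r = 0.996), while Cadm3 and Ackr1 spread widely (r = 0.65), and Cadm3 is highest in brain.

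The sequence just before the start of a gene is where inducible factors such as NF-kB are known to bind, so the 250 bases before the RefSeq start (GRCm38.p6) are shown for 3 members that rose after LPS, Selp and Icam1 in 14 tissues each and Madcam1 in 3. RefSeq windows for Icam2 and Vcam1 were not used here. The window of Ackr1 lies almost wholly inside its overlap with Cadm3 and is not printed. Capitals mark matches to the NF-kB pattern (GGG, then NNNNN, then CC) or the AP-1 pattern TGANTCA on either strand.
Selp, chr1:164115014-164115263, plus strand: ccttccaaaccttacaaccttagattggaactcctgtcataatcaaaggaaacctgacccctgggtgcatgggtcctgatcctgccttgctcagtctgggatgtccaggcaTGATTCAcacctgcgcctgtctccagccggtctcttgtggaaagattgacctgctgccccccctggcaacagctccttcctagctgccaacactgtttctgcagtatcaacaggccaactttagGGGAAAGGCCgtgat
Icam1, chr9:21015690-21015939, plus strand: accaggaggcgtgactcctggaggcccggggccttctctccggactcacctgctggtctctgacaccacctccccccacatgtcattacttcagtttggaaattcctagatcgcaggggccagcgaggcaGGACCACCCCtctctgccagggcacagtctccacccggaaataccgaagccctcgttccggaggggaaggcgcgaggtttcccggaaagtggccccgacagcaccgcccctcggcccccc
Madcam1, chr10:79664309-79664558, plus strand: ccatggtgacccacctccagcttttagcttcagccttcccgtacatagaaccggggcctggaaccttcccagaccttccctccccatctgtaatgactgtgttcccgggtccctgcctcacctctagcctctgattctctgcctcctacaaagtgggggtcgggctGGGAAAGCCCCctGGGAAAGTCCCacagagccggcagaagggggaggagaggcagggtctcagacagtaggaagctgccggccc
The Selp window held an NF-kB match from -15 to -6 (counted from the base before the start, as -1) and an AP-1 match from -139 to -133. The Icam1 window held 1 NF-kB match, on the reverse strand from -120 to -111. In the Madcam1 window, matches on both strands overlapped in a pair of clusters, from -84 to -74 and from -71 to -61. The NF-kB pattern is loose and occurred in 45.8% of 32851 promoter windows of the same length, and the AP-1 pattern in 6.75%. Neither the IRF pattern (GAAA, then NN, then GAAA, in 2.98% of windows) nor the TATA box TATAAA (12.4%) was in these 3 windows. The window of Ackr1, which rose in 10 tissues, was searched as well and held no match to any of these patterns, NF-kB included. A match describes letters and says nothing about binding, and sites with other letters are not marked.

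At 12 hours after LPS, the members rose in many tissues, each in its own set of them. Selp and Icam1 rose nearly everywhere, Ackr1 in 10 tissues, Vcam1 in 7 and Madcam1 in 3, whereas Icam2 rose in none. Of 88 tests of a member in a tissue, 48 were called higher in LPS than in PBS mice and 5 lower, at a Benjamini-Hochberg adjusted p below 0.05 over all genes of the tissue (limma on log2 of signal plus 1). Over all genes and tissues, 9.47% of tests were called higher and 10.4% lower. By tissue, these shares ran from 2.32% to 16.2% and from 2.03% to 21.9%. Madcam1 did not pass the filter on low values in lung and bone marrow, which is why 88 and not 90 tests were made. The median log2 change over the 88 tests was 0.99, while the median over all genes lay between -0.06 and 0.06 in every tissue. In 49 of the 53 called tests the 4 LPS mice did not overlap the 4 PBS mice. A call with 4 mice a group tends to go with such separation, and its share over all genes was not computed. The count is therefore no added support. Without mouse 6 the counts were 50 higher and 6 lower. Since these are whole tissues, fewer cells of a type and less RNA per cell cannot be told apart.

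Between TNFKO LPS and LPS mice, 8 member tests were called lower and 4 higher, against 2.32% and 3.24% of tests over all genes. The 8 were 4 of Selp, 3 of Madcam1 and 1 of Ackr1, and the 4 were all of Icam2. Icam1 and Vcam1 had no call in any of 15 tissues. Without mouse 6 the counts were 12 lower and 6 higher, without mouse 12 they were 5 and 4, and edgeR's quasi-likelihood test on the recovered counts gave 14 and 4. Against PBS mice, the TNFKO LPS mice had 41 member tests called higher and 6 lower, where 6.71% and 6.13% of all tests were. The 3 comparisons share groups of mice and are not independent of each other.

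**Figure D2:**
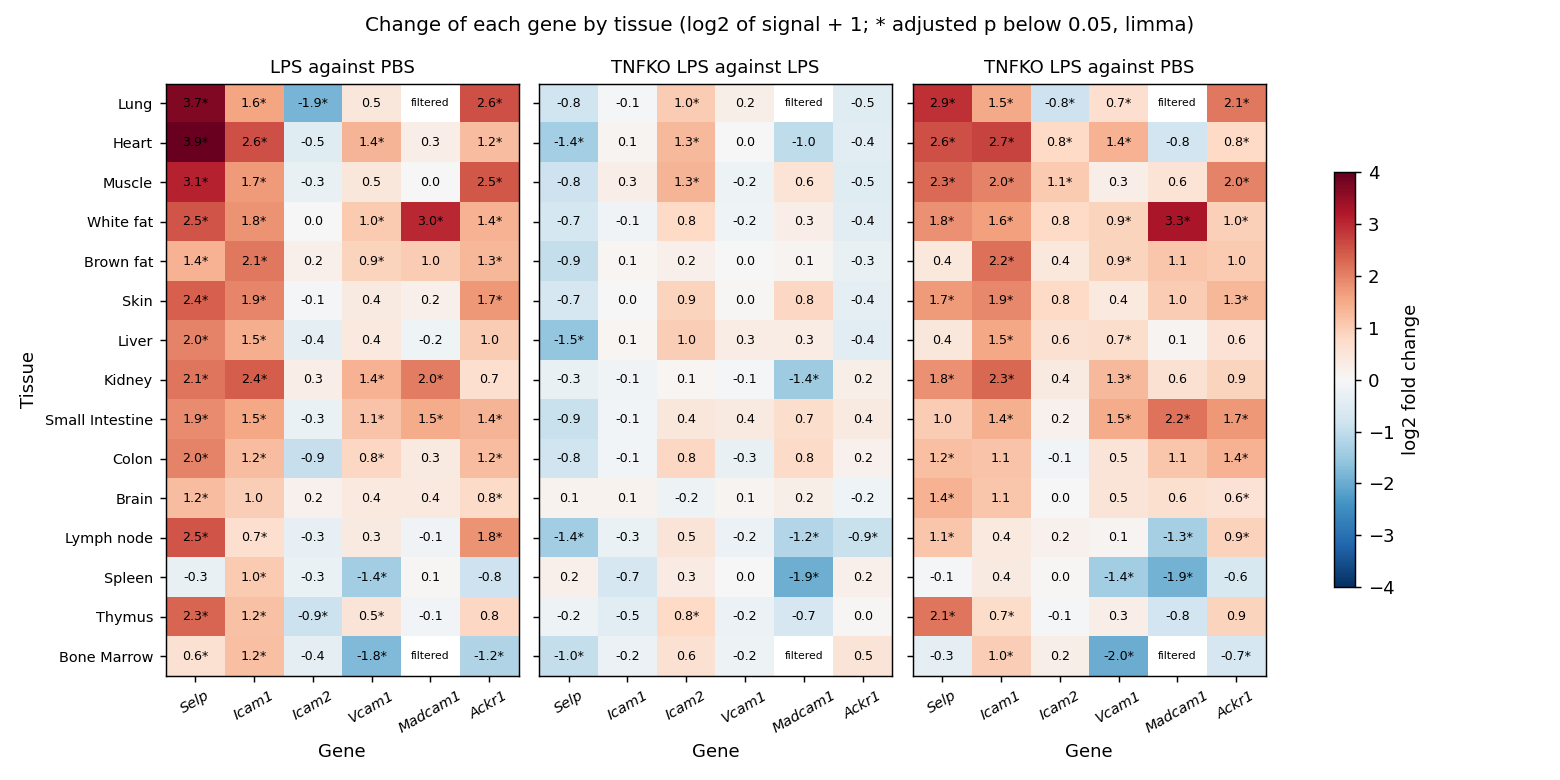
Log2 change of each gene (columns) in each tissue (rows) for the 3 comparisons, from limma on log2 of signal plus 1, with red for higher, blue for lower and an asterisk at an adjusted p below 0.05. Selp and Icam1 are red almost throughout on the left (14 of 15 tissues each), Vcam1 is blue in spleen and bone marrow, and the middle panel has 12 asterisks in all.

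P-selectin showed the widest range of responses. It is stored in granules of endothelial cells and platelets and moves to the surface within minutes, and its gene is also known to be induced over hours in mice. Selp rose in 14 of 15 tissues, with log2 changes up to 3.94, and the 4 LPS mice lay above the 4 PBS mice in each of the 14. In heart, Selp signals were 4.48, 5.51, 3.06 and 1.58 in the PBS mice and 56.4, 42.1, 92.6 and 88.1 in the LPS mice (log2 change 3.94, SE 0.27, limma adjusted p = 4.3e-12). In lung they went from 5.01, 6.32, 4.50 and 3.63 to 64.7, 39.5, 117 and 102 (log2 change 3.71, SE 0.25, limma adjusted p = 6.48e-12), and in muscle from 2.56, 6.76, 5.21 and 7.40 to 60.4, 25.8, 69.2 and 63.1 (log2 change 3.08, SE 0.30, limma adjusted p = 1.63e-09). In all 3 tissues mouse 6 was the lowest LPS mouse, with 42.1 in heart, 39.5 in lung and 25.8 in muscle, and it was still above each PBS mouse.

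Selp also rose in white fat (2.52), lymph node (2.52), skin (2.38), thymus (2.34), kidney (2.14), colon (2.00), liver (1.99), small intestine (1.88), brown fat (1.38) and brain (1.24), all on the log2 scale. The smallest rise was in bone marrow, which had the highest resting level: 35.4, 32.3, 23.5 and 32.7 in the PBS mice and 49.8, 52.4, 48.6 and 40.0 in the LPS mice (log2 change 0.62, SE 0.17, limma adjusted p = 0.00966). Spleen was the tissue without a call, at 10.4, 5.02, 7.52 and 12.6 in PBS and 6.22, 3.67, 7.85 and 10.8 in LPS mice (log2 change -0.29, SE 0.39, limma adjusted p = 0.689), and the groups overlapped. The calls in brain and bone marrow were lost when single mice were left out (1, 4 or 8 for brain, 3 for bone marrow), with limma adjusted p up to 0.0547 and 0.0529.

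In TNF-deficient mice, Selp reached lower levels after LPS in liver, heart, lymph node and bone marrow. In liver TNFKO LPS mice had 14.4, 12.2, 9.28 and 10.1, LPS mice 30.0, 27.9, 47.5 and 36.9 and PBS mice 12.0, 8.67, 7.43 and 5.29 (log2 change -1.54, SE 0.30, limma adjusted p = 0.000799 for TNFKO LPS against LPS). The TNFKO LPS and PBS ranges overlapped in liver, and that comparison had no call (log2 change 0.45, SE 0.30, limma adjusted p = 0.406). In heart the TNFKO LPS mice had 30.0, 26.9, 25.7 and 19.1, below each LPS mouse (log2 change -1.37, SE 0.27, limma adjusted p = 0.00177) and above each PBS mouse (log2 change 2.57, SE 0.27, limma adjusted p = 2.97e-08). So in heart the TNF-deficient mice lay between the other groups.

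Lymph node gave 5.76, 6.70, 3.34 and 4.24 in PBS, 36.6, 11.3, 51.7 and 51.8 in LPS and 9.52, 13.9, 9.86 and 14.6 in TNFKO LPS mice (log2 change -1.40, SE 0.34, limma adjusted p = 0.0304 for TNFKO LPS against LPS). Mouse 6, at 11.3, fell among the TNF-deficient mice there, and the call was lost when any one of mice 5, 7, 8, 9, 11 or 12 was left out. Bone marrow gave 19.8, 25.8, 18.2 and 35.0 in TNFKO LPS mice, below each LPS mouse (log2 change -0.96, SE 0.17, limma adjusted p = 0.00120). Platelet and megakaryocyte genes moved with it there: 5 of 10 markers were called lower in TNFKO LPS than in LPS mice and none higher, where 3.55% and 2.57% of all genes were. Their summed signal was 2258 to 2802 in PBS, 2301 to 2525 in LPS and 1429 to 1795 in TNFKO LPS mice. None of the 10 markers was at 0. Their part in the Selp result was not tested.

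Across all tissues, the change of Selp between TNFKO LPS and LPS mice was negative in 13 of 15, and 11 of these 13 had an unadjusted p below 0.05. The same mice gave all 15 tissues, so these are not 15 separate results, and the share of all genes at that p is not given. In lung the values were 51.0, 38.5, 37.6 and 43.8 in TNFKO LPS mice, with mouse 6 of the LPS group at the same height as they were (log2 change -0.80, SE 0.25, limma adjusted p = 0.0549). Skin (-0.66), muscle (-0.82) and brown fat (-0.95) also missed the threshold. edgeR's quasi-likelihood test on the counts called 8 tissues lower, adding lung, skin, muscle and brown fat. Without mouse 6, limma called 7. In colon, white fat and small intestine the TNFKO LPS mice lay below the LPS mice without overlap, also without a call by limma. Brain and spleen had changes of 0.14 and 0.21 in the other direction, neither called. In lung, the platelet marker sum was 82.7 to 118 in PBS, 109.8 to 287 in LPS and 88.6 to 124 in TNFKO LPS mice, and its part in the Selp values was not tested.

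ICAM-1 is present at a low level on resting endothelium and on many other cells, and it is a known NF-kB target. Icam1 rose in 14 of 15 tissues after LPS. Lung had by far the highest level in every group: 134, 145, 116 and 83.5 in PBS, 354, 272, 442 and 377 in LPS and 363, 376, 319.6 and 289 in TNFKO LPS mice (log2 change 1.59, SE 0.15, limma adjusted p = 3.36e-09 for LPS against PBS). The largest changes were in heart, from 14.4, 12.9, 8.42 and 5.51 to 59.3, 43.3, 89.2 and 68.9 (log2 change 2.58, SE 0.22, limma adjusted p = 5e-10), and in kidney, from 10.5, 13.2, 11.4 and 6.41 to 46.7, 31.4, 103 and 78.5 (log2 change 2.43, SE 0.25, limma adjusted p = 1.41e-08). In neither tissue did the groups overlap.

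Brown fat (2.12), skin (1.94), white fat (1.79), muscle (1.71), small intestine (1.55), liver (1.46), colon (1.24), bone marrow (1.20), thymus (1.19), spleen (1.04) and lymph node (0.66) followed, on the log2 scale. The change in brain had the same direction but missed the threshold, from 2.27, 2.26, 4.49 and 4.20 to 7.68, 8.69, 10.6 and 3.62 (log2 change 0.97, SE 0.32, limma adjusted p = 0.0867), and edgeR called it (adjusted p = 0.0187). Groups overlapped in colon and, through mouse 6 at 28.1, in spleen, where the other 3 LPS mice were at 59.5 to 65.9. The colon call was lost without mouse 1, 2, 7 or 8 (limma adjusted p up to 0.161).

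For Icam1, limma called no difference between TNF-deficient and wild-type mice given LPS with all mice kept. The log2 changes between them ran from -0.67 in spleen to 0.27 in muscle, and limma called 0 of 15. Without adjustment, spleen and thymus had p below 0.05, and edgeR called spleen lower (33.4, 35.3, 35.4 and 24.0 in TNFKO LPS mice, edgeR adjusted p = 0.0287). Without mouse 6, limma called spleen as well (-0.95, adjusted p = 0.00663). Heart is an example of close levels: 69.8, 65.3, 60.7 and 78.4 in TNFKO LPS mice against the LPS values above (log2 change 0.11, SE 0.22, limma adjusted p = 0.853). A p above the threshold does not show that the groups are alike, and the standard errors of these changes ran from 0.15 in lung to 0.41 in colon. Compared with PBS mice, Icam1 was called higher in TNFKO LPS mice in 11 tissues, and not in spleen, lymph node, colon and brain.

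ICAM-2 is found on endothelium at rest, and on lymphocytes and platelets, and is not known as an inducible molecule. Icam2 was called higher after LPS in 0 of 15 tissues, with 0 at an unadjusted p below 0.05 and 0 by edgeR, and fell in lung and thymus. In lung, its highest tissue at rest, signals were 130.3, 141, 147 and 140.5 in PBS mice and 49.7, 58.6, 22.8 and 30.4 in LPS mice (log2 change -1.86, SE 0.20, limma adjusted p = 3.06e-08). The TNFKO LPS mice lay in between without overlap, at 90.6, 89.7, 63.1 and 70.7 (log2 change 1.02, SE 0.20, limma adjusted p = 0.00179 against LPS, and log2 change -0.84, SE 0.20, limma adjusted p = 0.00297 against PBS). Lung thus held opposite changes of the ICAM genes, with Icam1 up and Icam2 down in the same libraries.

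Other endothelial genes also moved in lung. Of 17 endothelial identity markers, 12 were called lower and 2 higher in LPS than in PBS lung, where 13.9% and 11.7% of all genes were. Their median log2 change was -0.69, and Icam2 is not among the 17. Pecam1 made up 48.6% to 94.9% of the markers' sum in the tissues, so the sum was also taken without it. Without Pecam1 it was 2343 to 2608 in PBS, 1525 to 1996 in LPS and 1691 to 1985 in TNFKO LPS lung. The last 2 ranges overlap. Icam2 was higher in TNFKO LPS than in LPS lung in 4 of 4 mice. The part of endothelial content in the Icam2 values was not tested.

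In thymus, Icam2 fell from 47.2, 49.7, 46.1 and 55.1 to 29.0, 29.0, 30.6 and 20.2 (log2 change -0.86, SE 0.17, limma adjusted p = 0.000104), and the TNFKO LPS mice, at 61.0, 42.1, 39.3 and 49.5, overlapped the PBS values (log2 change 0.79, SE 0.17, limma adjusted p = 0.00158 against LPS). Of the 17 endothelial markers, 2 were called higher and 0 lower in LPS than in PBS thymus, against 9.7% and 8.83% of all genes. Their part in the Icam2 values was not tested. Heart and muscle showed a different order. Heart had 36.8, 23.0, 20.7 and 25.2 in PBS, 18.5, 29.6, 9.03 and 20.9 in LPS and 56.4, 50.0, 40.0 and 39.5 in TNFKO LPS mice (log2 change 1.30, SE 0.25, limma adjusted p = 0.00100 against LPS, log2 change 0.81, SE 0.25, limma adjusted p = 0.0242 against PBS). Muscle had 16.6, 4.51, 12.2 and 16.3 in PBS, 6.90, 10.0, 9.89 and 9.40 in LPS and 29.8, 20.4, 25.9 and 22.4 in TNFKO LPS mice (log2 change 1.35, SE 0.34, limma adjusted p = 0.0136 against LPS, log2 change 1.06, SE 0.34, limma adjusted p = 0.0279 against PBS). In both tissues each TNF-deficient mouse was above every mouse of the other groups, and LPS and PBS mice overlapped. The share of all genes that separate in this way was not computed. Without Pecam1, the endothelial marker sum in heart was 761 to 857 in PBS, 651 to 718 in LPS and 730 to 810 in TNFKO LPS mice. For muscle the ranges were 439 to 582, 455 to 647 and 494 to 556, which overlap. Their part in the Icam2 values of these tissues was not tested.

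The muscle call against LPS was lost without mouse 9 (limma adjusted p = 0.062). The calls of TNFKO LPS against PBS mice were lost more often, in heart without mouse 2, 3, 4, 9 or 10 (limma adjusted p up to 0.0955) and in muscle without mouse 2, 9 or 11 (up to 0.179). Without mouse 2 the muscle change against PBS was 0.68. Icam2 was higher in TNFKO LPS than in LPS mice in 14 of 15 tissues by direction, 8 of them with an unadjusted p below 0.05. As for Selp, the same mice gave all 15 tissues, so these are not 15 separate results. The share of all genes with such directions or such p is not given. Without mouse 6, which had the highest Icam2 of its group in 9 tissues, 6 tissues were called, with liver and bone marrow added. Since that mouse was picked by such values, the added calls are no added support.

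**Figure D3:**
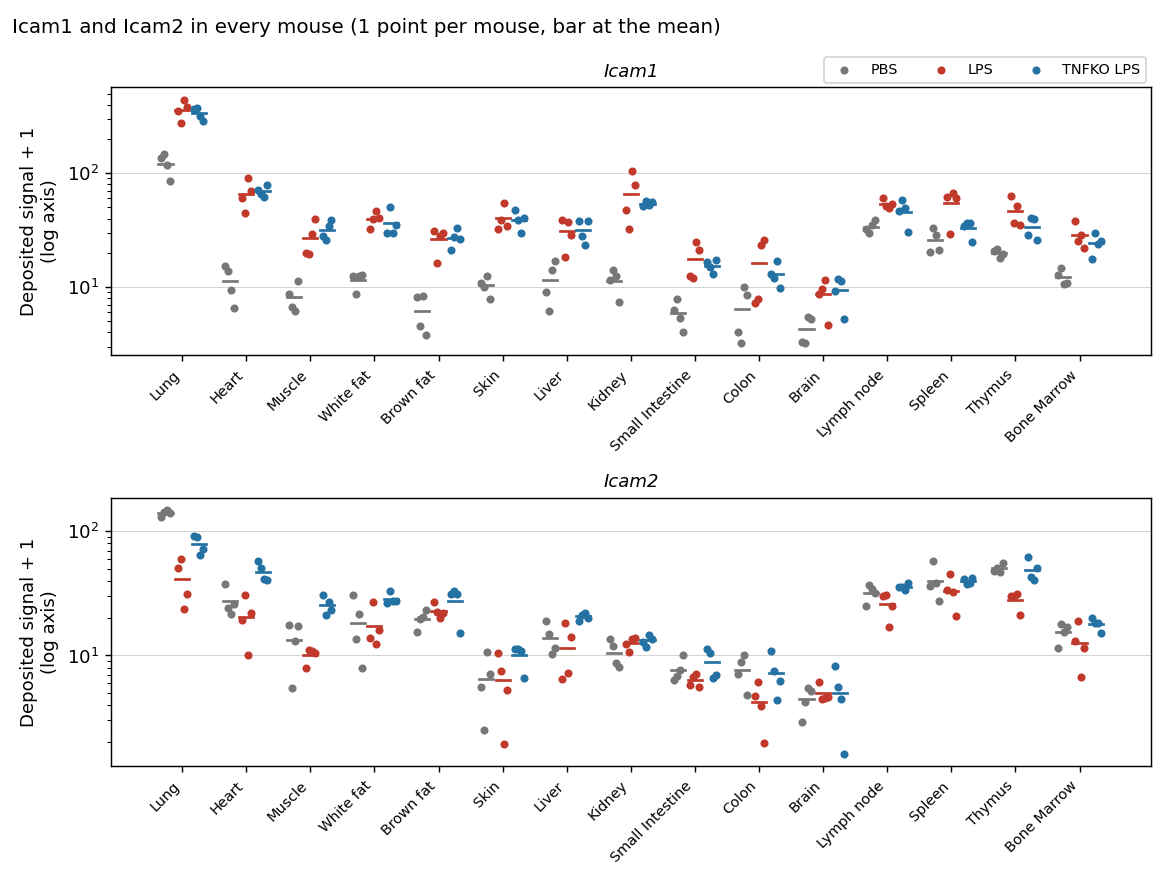
Deposited signal plus 1 on a log axis for Icam1 (top) and Icam2 (bottom) in 15 tissues, with 1 point per mouse and a bar at the mean of each group of 4 (grey PBS, red LPS, blue TNFKO LPS). Red and blue points of Icam1 lie together above the grey ones in most tissues, while for Icam2 the red points fall below the grey ones in lung and thymus and the blue points stand highest in heart and muscle.

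VCAM-1 is an inducible endothelial molecule, and macrophages of spleen and bone marrow also carry it. Vcam1 rose in 7 tissues and fell in 2, spleen and bone marrow, the tissues where its resting level was highest. Spleen went from 238, 253, 264 and 272 to 108, 139, 78.5 and 73.9 (log2 change -1.40, SE 0.15, limma adjusted p = 1.74e-08). Bone marrow went from 253, 202, 215 and 238 to 76.8, 78.4, 54.3 and 56.2 (log2 change -1.77, SE 0.15, limma adjusted p = 9.46e-10). Every LPS mouse was below every PBS mouse in both.

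Macrophage genes moved in the same tissues. In spleen, 7 of 11 monocyte and macrophage markers were called lower and 2 higher after LPS, where 7.75% and 8.04% of all genes were. Summed signals were 1204 to 1435 in PBS, 774 to 1387 in LPS and 1037 to 1250.0 in TNFKO LPS mice. The sum is over all 12 markers, of which Vsig4 was at 0 in all LPS and all TNFKO LPS spleens. Cd163, a scavenger receptor of red pulp macrophages, changed by -3.01 and Mrc1, the mannose receptor, by -2.37. Bone marrow had 4 of 12 called lower (Cd163 at -2.21, Mrc1 at -2.45) and 2 higher (Marco, another scavenger receptor, at 3.37), where 12.3% and 10.6% of all genes were. The sum of all 12 markers was higher after LPS, at 969.7 to 1088 in PBS, 1415 to 1698 in LPS and 1080.4 to 1508 in TNFKO LPS mice. Their part in the Vcam1 values was not tested.

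Vcam1 rose in kidney, from 22.3, 17.0, 15.2 and 20.7 to 45.4, 45.5, 54.3 and 56.3 (log2 change 1.38, SE 0.15, limma adjusted p = 2.41e-08), and in heart, from 24.2, 32.2, 22.2 and 28.4 to 63.2, 63.8, 67.7 and 89.0 (log2 change 1.37, SE 0.16, limma adjusted p = 1.24e-07). It also rose in small intestine (1.15), white fat (1.05), brown fat (0.90), colon (0.82) and thymus (0.50). In colon and thymus the groups overlapped, and the colon call was lost without mouse 1, 2, 4, 7 or 8. Lung had no call (log2 change 0.45, SE 0.21, limma adjusted p = 0.128): its LPS mice were at 49.7, 27.8, 90.1 and 60.8, with mouse 6 below each of the PBS mice (40.1, 39.8, 35.4 and 37.5), and edgeR called it higher (adjusted p = 0.00419). Without mouse 6, limma called lung Vcam1 higher too (0.75, adjusted p = 0.000442).

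Neither direction of Vcam1 differed between TNFKO LPS and LPS mice by the test. Log2 changes ran from -0.29 in colon to 0.35 in small intestine, limma called 0 of 15 tissues, 0 had an unadjusted p below 0.05, and edgeR called 0. TNFKO LPS spleens had 80.9, 119, 97.4 and 97.2 (log2 change 0.02, SE 0.15, limma adjusted p = 0.978), and the kidneys 49.9, 47.8, 44.5 and 48.6 (log2 change -0.07, SE 0.15, limma adjusted p = 0.791). Standard errors were 0.13 to 0.26, and a call after adjustment takes a change of several standard errors. Differences well above 0.26 could therefore have been missed. Against PBS, TNFKO LPS mice had Vcam1 called higher in 7 tissues and lower in 2, spleen and bone marrow. Of the 7, 4 were lost when single mice were left out: lung without any one of 8 mice (limma adjusted p up to 0.0776), liver without 3, 9, 11 or 12 (0.112), brown fat without 3, 11 or 12 (0.0777) and white fat without 1 or 10 (0.0972).

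MAdCAM-1 marks the venules of gut mucosa and its lymphoid tissue and the cells lining the marginal sinus of the spleen. Madcam1 counts were low, at 40 or fewer in any library, so its values carry large counting error, and its fitted changes depend on the pseudocount. Its rise after LPS was called in white fat, kidney and small intestine. White fat held 2, 0, 0 and 0 counts in the PBS mice and 16, 15, 4 and 11 in the LPS mice, or signals of 3.28, 0, 0 and 0 and 14.8, 16.2, 4.13 and 11.8 (log2 change 3.00, SE 0.50, limma adjusted p = 0.000116). The TNFKO LPS mice had 22.1, 10.4, 15.2 and 7.83 there (log2 change 0.27, SE 0.50, limma adjusted p = 0.860 against LPS), above each PBS mouse.

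Kidney held 0, 2, 0 and 1 counts of Madcam1 in PBS, 7, 7, 8 and 4 in LPS and 3, 4, 2 and 0 in TNFKO LPS mice. As signals, LPS kidneys were above PBS kidneys (log2 change 2.03, SE 0.41, limma adjusted p = 0.000236) and above TNFKO LPS kidneys (log2 change -1.43, SE 0.41, limma adjusted p = 0.0132), with no overlap in either comparison. The second call was lost with a pseudocount of 0.25 (limma adjusted p = 0.0533) and without mouse 12 (0.0708). Madcam1 passed the filter on low values in kidney with 7 libraries, among them all LPS kidneys. Without the LPS kidneys it would have stayed below the 4 libraries that the filter needed. Both kidney calls were kept in the fit with no filter. In small intestine, signals were 0, 6.82, 3.66 and 3.02 in PBS, 9.63, 10.4, 8.16 and 6.91 in LPS and 18.9, 18.0, 13.3 and 10.4 in TNFKO LPS mice (log2 change 1.47, SE 0.41, limma adjusted p = 0.0119 for LPS against PBS). TNF-deficient mice were the highest group in small intestine, but their difference from LPS mice had no call (log2 change 0.70, SE 0.41, limma adjusted p = 0.353).

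Spleen and lymph node showed another pattern for Madcam1, with no change after LPS called and lower levels in TNF-deficient mice. In spleen the PBS mice had 11.8, 16.7, 19.3 and 15.8, the LPS mice 13.3, 20.8, 20.4 and 12.6 and the TNFKO LPS mice 3.03, 9.41, 0.984 and 3.99. LPS and PBS mice overlapped (log2 change 0.06, SE 0.39, limma adjusted p = 0.949), and each TNF-deficient mouse was below all 8 others (log2 change -1.94, SE 0.39, limma adjusted p = 0.00276 against LPS, log2 change -1.89, SE 0.39, limma adjusted p = 0.000748 against PBS). Lymph node had 5.18, 9.38, 11.1 and 12.3 in PBS, 13.2, 11.3, 5.65 and 4.98 in LPS and 4.95, 2.77, 3.17 and 1.83 in TNFKO LPS mice (log2 change -1.18, SE 0.32, limma adjusted p = 0.0464 against LPS, log2 change -1.32, SE 0.32, limma adjusted p = 0.00639 against PBS). In lymph node the highest TNF-deficient mouse (4.95) was just under the lowest LPS mouse (4.98). That call was lost without any one of 9 mice, with limma adjusted p up to 0.138, while the spleen call was kept without each mouse in turn. With no untreated TNF-deficient mice, a spleen Madcam1 level that was low from the start and one lowered after LPS cannot be told apart.

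B cells share these tissues. Summed B cell marker signals in spleen were 2243 to 2705 in PBS, 931 to 1490.1 in LPS and 1540.4 to 1767 in TNFKO LPS mice. Of 9 markers, 5 were called higher and 0 lower in TNFKO LPS than in LPS spleens, against 2.56% and 1.59% of all genes. In lymph node the sums were 1656 to 1995, 1078 to 1321 and 1313 to 1635, with 4 markers called higher and 0 lower, against 1.72% and 1.4% of all genes. No B cell marker was at 0 in all mice of a group. Their part in the Madcam1 values was not tested.

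**Figure D4:**
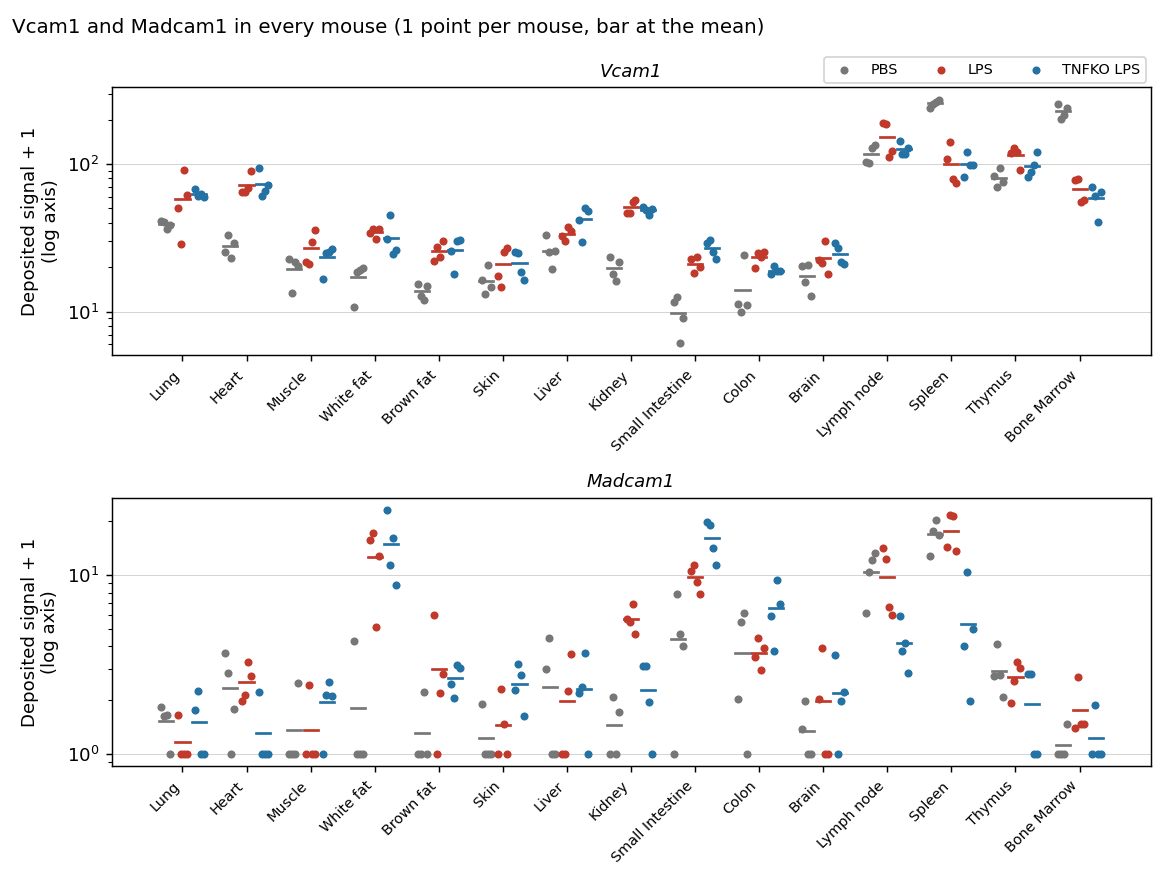
Deposited signal plus 1 on a log axis for Vcam1 (top) and Madcam1 (bottom) in 15 tissues, with 1 point per mouse and a bar at the mean of each group of 4 (grey PBS, red LPS, blue TNFKO LPS). Vcam1 falls in spleen and bone marrow and rises in kidney and heart with red and blue points together, while Madcam1 is lowest in the blue points of spleen and lymph node.

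Ackr1, the venular chemokine receptor, is also known as the Duffy antigen and is carried by erythroid cells and by nerve cells of the cerebellum. It rose in 10 tissues and fell in bone marrow. In muscle it went from 5.11, 19.2, 10.4 and 10.4 to 86.2, 35.9, 79.1 and 57.7 (log2 change 2.47, SE 0.28, limma adjusted p = 2.63e-08) and in lung from 5.01, 1.89, 3.86 and 7.26 to 31.4, 19.0, 42.5 and 31.2 (log2 change 2.59, SE 0.28, limma adjusted p = 5.32e-08). Skin had 36.3, 24.2, 30.1 and 27.2 in PBS and 103, 103, 111 and 79.9 in LPS mice (log2 change 1.72, SE 0.15, limma adjusted p = 6.2e-08). All LPS mice were above all PBS mice in these tissues.

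The other rises of Ackr1 were in lymph node (1.78), white fat (1.40), small intestine (1.37), brown fat (1.32), colon (1.24), heart (1.22) and brain (0.75). Liver (log2 change 1.03, SE 0.40, limma adjusted p = 0.0599) and thymus (log2 change 0.84, SE 0.32, limma adjusted p = 0.0592) missed the threshold, and edgeR called liver (adjusted p = 0.0319). Cadm3, which overlaps the Ackr1 gene, had no call after LPS in any tissue by limma. In muscle Cadm3 had means of 11.7 ± 4.89 in PBS and 11.4 ± 3.56 in LPS mice (SD, n = 4), and in lung 3.87 ± 1.91 and 4.00 ± 1.31, while Ackr1 rose there. In brain Cadm3 was highest, at 109.8 ± 7.95 in PBS and 84.4 ± 5.10 in LPS mice, so brain Ackr1 (43.5, 52.9, 42.2 and 52.3 in PBS, 72.7, 74.8, 78.8 and 98.4 in LPS) may include Cadm3 reads. Ackr1 rose in brain (log2 change 0.75, SE 0.14, limma adjusted p = 0.00182) while the change of Cadm3 was -0.37, not called. At rest the Cadm3 mean was also above that of Ackr1 in skin (33.0 ± 0.703), heart (9.13 ± 4.71), muscle and spleen (10.7 ± 3.45), so the levels of Ackr1 in these tissues may include Cadm3 reads as well.

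Bone marrow Ackr1 went from 28.9, 39.9, 36.3 and 36.5 in PBS to 16.9, 11.5, 14.6 and 16.7 in LPS mice (log2 change -1.20, SE 0.17, limma adjusted p = 6.97e-06). Erythroid genes fell with it: 9 of 10 markers were called lower, where 12.3% of all genes were. Their summed signal was 176987 to 194491 in PBS, 125999 to 143267 in LPS and 104395 to 117557 in TNFKO LPS mice, with none at 0. Their part in the Ackr1 result was not tested. TNFKO LPS mice had Ackr1 at 29.4, 20.5, 17.8 and 20.4, above each LPS mouse without a call (log2 change 0.52, SE 0.17, limma adjusted p = 0.0691). In spleen all LPS mice were below all PBS mice for Ackr1, again without a call (log2 change -0.84, SE 0.42, limma adjusted p = 0.191), and Cadm3 went from 10.7 ± 3.45 to 4.56 ± 0.720 there, also not called.

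With all mice kept, limma called Ackr1 different between TNFKO LPS and LPS mice in lymph node alone. Signals there were 12.7, 16.5, 17.4 and 23.3 in PBS, 63.8, 52.5, 65.6 and 64.3 in LPS and 26.3, 35.2, 34.9 and 36.5 in TNFKO LPS mice (log2 change -0.88, SE 0.16, limma adjusted p = 0.00511 against LPS, log2 change 0.91, SE 0.16, limma adjusted p = 0.000462 against PBS). The 3 groups did not overlap, and the TNF-deficient mice lay in the middle. edgeR also called lung lower (-0.49 by limma, edgeR adjusted p = 0.0382). Without mouse 6, limma also called white fat lower (-0.68 in place of -0.44, adjusted p = 0.0265 in place of 0.306). In inguinal lymph node Selp, Madcam1 and Ackr1 were called lower in the TNF-deficient mice, the first pair of calls being those lost without single mice, and Icam1, Icam2 and Vcam1 were not called.

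**Figure D5:**
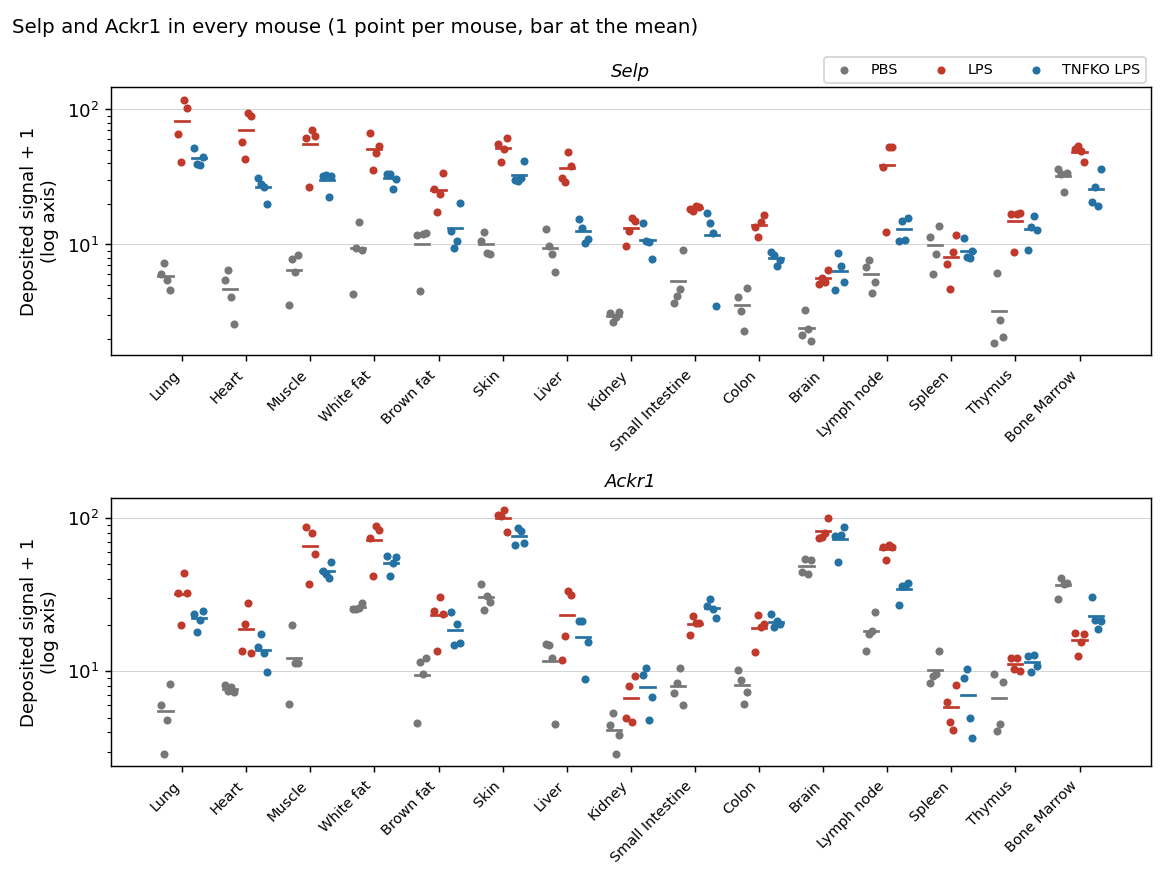
Deposited signal plus 1 on a log axis for Selp (top) and Ackr1 (bottom) in 15 tissues, with 1 point per mouse and a bar at the mean of each group of 4 (grey PBS, red LPS, blue TNFKO LPS). Selp is higher in red than in grey in 14 tissues and not in spleen, blue points lie between them in heart, and Ackr1 falls only in bone marrow among the called changes.

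The size of the LPS change differed among tissues for all 6 members when all 45 groups were fitted together (limma moderated F, 14 tissue differences, adjusted p from 3.16e-25 for Vcam1 to 0.00229 for Icam2). Such a difference was common, called for 65.3% of all 13820 genes. Each tissue was then set against the mean of the other 14. Of 90 such tests of members, 13 were called above and 8 below, against 5.22% and 5.5% of tests over all genes. Selp stood above in heart (1.97), lung (1.73) and muscle (1.06) and below in spleen (-2.56) and bone marrow (-1.59), as differences of log2 changes.

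Spleen and bone marrow were also below the other tissues for Vcam1 (-1.96 and -2.36) and Ackr1 (-2.07 and -2.45), so 3 of the 6 members shared both tissues. Vcam1 stood above in kidney (1.02), heart (1.01), small intestine (0.77) and white fat (0.67), and Ackr1 in lung (1.60) and muscle (1.48). Icam1 stood above in heart (1.09) and kidney (0.93) and below in lymph node (-0.97). Madcam1 stood above in white fat (2.61) and kidney (1.56), and Icam2 below in lung (-1.60). With a pseudocount of 0.25 the calls of Selp in muscle and Madcam1 in kidney were lost (limma adjusted p = 0.0581 and 0.0614).

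The change between TNFKO LPS and LPS mice differed among tissues for Madcam1 (limma adjusted p = 0.000511) and Selp (0.0138), where 25.6% of all genes did. Icam2 had an adjusted p of 0.11, which became 0.0464 with mouse as a replicate block. Ackr1 (0.0913), Vcam1 (0.623) and Icam1 (0.857) were not called. Madcam1 in spleen (-1.89 against the mean of the other 14 tissues) was the one single-tissue difference called among the 90 member tests, where 0.939% of all tests were called below and 0.941% above. That call was lost with a pseudocount of 0.25 (-2.13, limma adjusted p = 0.25).

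At rest the members were spread over different organs. In PBS mice the Icam1 signal was highest in lung (119.9 ± 27.0, mean ± SD, n = 4), then lymph node (33.0 ± 3.67), spleen (24.7 ± 6.15) and thymus (18.9 ± 1.68), and lowest in brain (3.31 ± 1.21). Along this order, lung did not overlap lymph node and thymus did not overlap bone marrow, and all other neighbours overlapped. Icam2 was likewise highest in lung (139.7 ± 6.82), with no overlap with thymus (49.5 ± 3.98), and lowest in brain (3.45 ± 1.17).

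Resting Vcam1 was highest in spleen (257 ± 14.9) and bone marrow (227 ± 22.7), whose ranges overlapped. Lymph node (116 ± 16.5), thymus (79.7 ± 10.3) and lung (38.2 ± 2.21) followed, each apart from the next, and small intestine was lowest (8.84 ± 2.88). After LPS the highest mean of Vcam1 was in lymph node (151 ± 41.1), and the mean in spleen was 99.8 ± 30.3, with overlapping ranges.

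Selp was highest at rest in bone marrow (31.0 ± 5.19), apart from the 14 other tissues, whose means lay between 1.42 ± 0.584 in brain and 9.15 ± 3.75 in brown fat. After LPS lung had the highest mean (81.0 ± 35.4), overlapping heart (69.8 ± 24.5) and muscle (54.6 ± 19.6). Madcam1 had its highest resting means in spleen (15.9 ± 3.11) and lymph node (9.50 ± 3.11), which overlapped. Ackr1 was highest at rest in brain (47.7 ± 5.65), followed by bone marrow (35.4 ± 4.65) and skin (29.5 ± 5.16), and in brain and skin reads of Cadm3 may be included.

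Over the 45 tissue and group means, the genes most like each member were Ifi204, Clec4e and Irak3 for Selp (Pearson r of log2 signals 0.83, 0.82 and 0.81) and, after Gm47079, Cflar (0.82) and Gm45551 (0.81) for Icam1. For Icam2 they were Sh2d3c (0.86), Elk3 (0.84) and Fmnl3 (0.84), and for Vcam1 Klhl6 (0.87), Limd2 (0.85) and Uvrag (0.85). Madcam1 was nearest to Apol7c (0.70), Col6a4 (0.68) and Pla2g2d (0.66), and Ackr1 to Apod (0.71), Chl1 (0.70) and Drp2 (0.69). Among the members themselves, Icam1 and Icam2 had r = 0.65, Selp and Icam1 0.61, and Icam2 and Ackr1 -0.38. These are descriptions over means that share mice and libraries.

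Genes for the leukocyte side of the contact had calls in both directions. Of 180 tests of 12 ligands and integrin chains, 31 were called higher and 21 lower after LPS, with a median log2 change of 0.10. Over all genes and tissues 9.47% of tests were called higher and 10.4% lower, so the lower calls were near that share. Itgam, the alpha chain of Mac-1, a partner of ICAM-1, was called higher in 9 tissues, and Cd44, which binds selectins, in 6. Itgax was called lower in 4 tissues, and Itgb7, a chain of the MAdCAM-1 receptor, in 3. Between TNFKO LPS and LPS mice, 11 of 180 were called higher, among them Itgal in 4 and Itgb7 in 3 tissues, and 3 lower. Over all genes 3.24% of these tests were called higher and 2.32% lower.

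The receptors and signal genes that act upstream of these molecules rose widely. Of 269 tests of 18 genes, 136 were called higher and 9 lower after LPS, against 9.47% and 10.4% of tests over all genes. Their median log2 change was 0.65. Cd14, the LPS co-receptor, and Nfkbia, the NF-kB inhibitor and target, were called higher in 15 of 15 tissues, Tnfaip3 and Irf1 in 14, and Tnfrsf1a, Tnfrsf1b and Il1r1, the TNF and interleukin-1 receptors, in 11. Tlr4, the LPS receptor, was called in 0 tissues. In TNFKO LPS against LPS mice 47 tests were called lower and 13 higher, against 2.32% and 3.24% of tests over all genes. Cd14 was lower in 9 tissues, Nfkbia and Il1r1 in 5, Tnfaip3 in 4 and Tnfrsf1a and Tnfrsf1b in 3. Of the 13 higher tests, 11 were of Tnf itself.

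Other genes of the endothelial surface moved in both directions. Among 252 tests of 17 other adhesion and transmigration genes, 42 were called higher and 51 lower after LPS, with a median log2 change of -0.01. For this and the lists that follow, the shares over all genes and tissues were 9.47% higher and 10.4% lower. F11r, which codes for junctional adhesion molecule A, was called higher in 7 tissues and Cdh5, which codes for VE-cadherin, in 6. Cd81 was called lower in 12 tissues, Aoc3, which codes for vascular adhesion protein 1, in 8 and Cd34 in 6. Among the 17 identity markers, 32 of 255 tests were called higher and 55 lower. Pecam1, Cdh5, Esam and Emcn were higher in 6 tissues each, and Esam and Emcn were also lower in 1. Ptprb was lower in 11 tissues, Tek and Sox18 in 8 and Plvap in 7. Of the venular markers that are no members, Lrg1 was called higher in 12 tissues and Aplnr lower in 11, with 14 of 105 tests higher and 21 lower in all. Without Pecam1, the identity marker sum of LPS mice lay below that of PBS mice without overlap in 4 tissues (colon, lung, heart and bone marrow), above it in thymus, and overlapped in 10. Pecam1 itself was higher in LPS than in PBS colons without overlap, at 2555 to 2868 against 2189 to 2473. The part of endothelial content in the members' changes was not tested.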

How the data were processed

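Tissue RNA was sequenced as 3′ tags with unique molecular identifiers, per the labels' protocols; whether these were collapsed, the aligner and the use of strand in counting are not given in the sources used here. The submitters' processing notes name FastQC, MultiQC, edgeR and mm10. The deposited signal, from a table named for CPM and scaled by the authors, sums to 703690 to 1603067 per library. Whole counts were recovered from the deposited signal in all 180 libraries (100% of values within 0.1 counts). Each tissue was fitted with limma 3.58.1 (R 4.3.3) on log2(signal + 1) in 12 libraries and 3 groups, with 9 residual degrees of freedom, for genes at a signal of 1 or more in at least 4 libraries. Fold changes are on that scale, which understates the change of low genes. p-values were Benjamini-Hochberg adjusted over all genes of a tissue and comparison, at a threshold of 0.05. A joint fit of 45 groups (135 residual degrees of freedom) tested differences among tissues. The scripts were tested on simulated data. Alternatives were a pseudocount of 0.25, no filter, median-of-ratios rescaling, 2 groups alone, each mouse left out, edgeR 4.0.16's quasi-likelihood test on the recovered counts and, in the joint fit, mouse as a replicate block. The same mouse gave all 15 tissues. Taken over all genes, residuals of 1 mouse in different tissues had a median correlation of 0.0107 over 1260 tissue pairs. That value does not measure how a mouse differs in single genes, such as the low Selp of mouse 6 in 12 of 15 tissues. The members, the gene lists and the naming rule (members, listed genes with a call, and the 3 genes most like each member) were chosen with earlier results of these data known. Counting error limits low genes: 1 count was a signal of 0.322 to 3.6. The check of tissue labels against a marker gene is not reported here for spleen and lymph node.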

Additional observations from a re-analysis of the deposited data

Results flagged for a closer look

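In 24 of 264 groups of 4 mice, 1 mouse lay far from the other 3 by Dixon's test at the 95% level, where chance gives about 1 in 20. Mouse 6 of the LPS group accounted for 6 of them, and 7 rest on at most 3 counts. For Selp these were mouse 6 in thymus (signal 7.84) and muscle (25.8), mouse 11 in TNFKO LPS muscle (21.3), mouse 2 in PBS brown fat (3.52) and mouse 12 in TNFKO LPS skin (40.4). For Icam1 they were mouse 6 in spleen (28.1) and brown fat (15.2), mouse 12 in TNFKO LPS spleen (24.0) and mouse 2 in PBS white fat (7.76). For Icam2 they were mouse 8 in LPS thymus (20.2), mouse 12 in TNFKO LPS brown fat (14.2) and skin (5.59), and mouse 5 in LPS brain (5.12). For Vcam1 they were mouse 3 in PBS colon (23.1), mouse 9 in TNFKO LPS muscle (15.6) and mouse 1 in PBS white fat (9.84). Madcam1 had mouse 9 in TNFKO LPS heart (1.23), mouse 4 in PBS muscle (1.48), mouse 6 in LPS muscle (1.44), and in PBS mice mouse 1 in white fat (3.28), mouse 3 in brown fat (1.23) and mouse 1 in skin (0.907). For Ackr1 in lymph node, mouse 6 of the LPS group had 52.5 and mouse 9 of the TNFKO LPS group 26.3, both low in their groups.

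The change after LPS differed among the 15 tissues by limma's moderated F for Selp (adjusted p = 1.96e-16), Icam1 (0.000161), Icam2 (0.00229), Vcam1 (3.16e-25), Madcam1 (1.67e-05) and Ackr1 (2.02e-18). The difference between TNFKO LPS and LPS mice did so for Selp (0.0138) and Madcam1 (0.000511).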

How the results depend on the processing

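No member changed direction with a call under any alternative run. Between TNFKO LPS and LPS mice the 8 tests called lower became 14 with edgeR on the recovered counts and 5 without mouse 12, which lost Selp and Madcam1 in lymph node and Madcam1 in kidney. Leaving out each mouse in turn gave 46 to 50 higher and 5 to 6 lower for LPS against PBS, 3 to 6 higher and 5 to 12 lower for TNFKO LPS against LPS, and 34 to 43 higher and 6 to 7 lower for TNFKO LPS against PBS. Of 53, 12 and 47 calls in these comparisons, 49, 8 and 37 were kept without each mouse. With mouse as a replicate block in the joint fit, members whose TNFKO LPS against LPS change differed among tissues went from 2 to 3, by Icam2 (limma adjusted p = 0.0464), and Selp in brain was added as below the other tissues after LPS (-0.92, adjusted p = 0.0367). The block changed no other call. A pseudocount of 0.25 lost 3 single-tissue differences: Madcam1 in kidney (2.42, adjusted p = 0.0614), Selp in muscle (1.05, 0.0581) and Madcam1 in spleen between TNFKO LPS and LPS mice (-2.13, 0.25). The cause was not tested. Low counts limit Madcam1 in particular.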

Other observations

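Markers of blood cells in the same libraries give the setting in which the adhesion genes were measured. In lung, 12 of 12 neutrophil markers were called higher after LPS by limma, with a median log2 change of 3.28, and 1 was called higher and 1 lower in TNFKO LPS than in LPS mice. Spleen had 9 of 12 called higher, while bone marrow had 7 called lower and 2 higher. Over all tissues, 57 of 180 tests of neutrophil markers were called higher and 8 lower. Of 150 tests of fibroblast and stromal markers, 22 were called higher and 31 lower. After LPS, 9.47% of tests over all genes and tissues were called higher and 10.4% lower, and no tissue passed 16.2% and 21.9%.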
